A study of Mus musculus with 32 samples.

Results

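The genes described here are 10 classic markers of the cells that build the stroma and the vessel wall of a tumor: Acta2, Tagln, Myh11 and Cnn1 for contractile smooth muscle, Rgs5, Pdgfrb, Notch3 and Cspg4 for pericytes, and Pdgfra and Fap for fibroblasts. They were found by gene symbol among the 39676 genes of the count table, where 8 of the 10 had a row. Acta2 and Myh11 were not analysed here. The 8 genes were followed over all 32 mesothelioma tumors, in 2 models and at 2 sites.

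Smooth muscle cells and pericytes wrap around the endothelium and are together called mural cells. Endothelial cells draw them in with platelet-derived growth factor (PDGF) B, which binds the receptor encoded by Pdgfrb, and contact through Notch3 keeps them in a vascular state, in which target genes such as Heyl are switched on. Contractile genes such as Tagln and Cnn1 depend on serum response factor (SRF) and its cofactors, while Pdgfra, the receptor for PDGF-A and PDGF-C, and Fap, a cell surface protease, mark fibroblasts, Fap mainly in their activated state in tumors and healing tissue.

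AB1 cells were grown in BALB/c mice and AE17 cells in C57BL/6 mice, both being mouse mesothelioma lines placed in animals of matching strain. The mice were female and 8–10 weeks old in the study's methods, and all were untreated. Each received 500000 AB1 or 1000000 AE17 cells, either in 200 μL in the pleural space (intrapleural, IPL) or in 100 μL under the skin of the flank (subcutaneous, SC), and tumors were taken on day 10. Each of the 4 groups held 8 tumors, each from 1 mouse, and lungs and surrounding tissue were removed before RNA extraction. Each model rests on 1 cell line. Bulk RNA holds tumor cells and host cells together, so a level cannot be assigned to a cell type, and fewer cells of a type cannot be told apart from less RNA per cell.

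Total counts ranged from 15432258 to 20649645 per tumor, and the detection limit used, 3 counts, equals 0.145 to 0.194 CPM, the count after scaling for depth. Sequencing lane followed the groups: all 8 AB1 IPL tumors were on lane 3 and all 8 AE17 SC tumors on lane 1, while 2 AB1 SC tumors were on lane 3 and 6 on lane 2, and 5 AE17 IPL tumors were on lane 2 and 3 on lane 1. Markers of tissue next to a tumor also differed. The summed level of 8 skeletal muscle genes, of which Acta1 was the most abundant, had medians of 2111 (IPL) and 307.2 CPM (SC) for AB1, against 534.1 and 600.8 CPM for AE17. Upk3b and Lrrn4, 2 of a list of 5 mesothelial genes, had at most 3 counts in every SC tumor of both models. The other genes of that list did not all stay at this limit. The list summed to medians of 1.94 (IPL) and 2.00 CPM (SC) for AB1, against 15.6 and 9.29 CPM for AE17. A list of 5 lung epithelial genes summed to between 1.24 and 11.9 CPM in all tumors. Endothelial markers such as Pecam1, Cdh5 and Kdr were present in every group, with summed medians between 153.0 and 203.1 CPM.

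Scaled by exon length, the growth factor receptors led the panel. On the RPKM scale, which is CPM per kilobase of exon, Pdgfrb had the highest mean in AB1 tumors (27.7 ± 2.65 in IPL and 19.5 ± 1.78 in SC, SD, n = 8), followed by Pdgfra (22.4 ± 5.98 and 16.3 ± 3.83) and Rgs5 (8.92 ± 2.60 in IPL). In AE17 tumors the order of the receptors was turned, with Pdgfra at 30.6 ± 3.96 in IPL and 43.8 ± 15.3 in SC tumors and Pdgfrb at 28.5 ± 4.73 and 36.4 ± 5.46. The receptors were neighbours within their spread: Pdgfrb was above Pdgfra in 6 of 8 tumors of each AB1 group, and Pdgfra above Pdgfrb in 5 of 8 AE17 IPL and 7 of 8 AE17 SC tumors. Pdgfrb was above Rgs5 in all 8 tumors of each AE17 group. The exon length joins all annotated exons of a gene, 10024 bases for Pdgfra and 5478 for Pdgfrb. By CPM, Pdgfra had the higher mean of the receptors in every group, with 224.6 against 151.5 in AB1 IPL and 163.8 against 106.7 in AB1 SC tumors. The order of the receptors in AB1 thus depends on the length used. Cnn1 was lowest in every group, at means between 0.0696 and 0.239 RPKM, and the contractile gene Tagln lay between 0.601 and 3.25 RPKM. The RPKM of Tagln uses its full exon length, of which 62.4% overlaps an antisense gene, and its place would be understated if shared reads were not counted. Cspg4 and Tagln changed places between groups. Cspg4 was next above Cnn1 in AB1 SC tumors (0.344 ± 0.108 RPKM) and next below Rgs5 in AE17 SC tumors (10.5 ± 7.32 RPKM), where Rgs5 was the higher of the pair in 6 of 8 tumors. In AE17 IPL tumors Tagln, Fap, Notch3 and Cspg4 lay between 2.24 and 3.25 RPKM, and each was above the next in only 5 or 6 of 8 tumors.

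**Figure D1:**
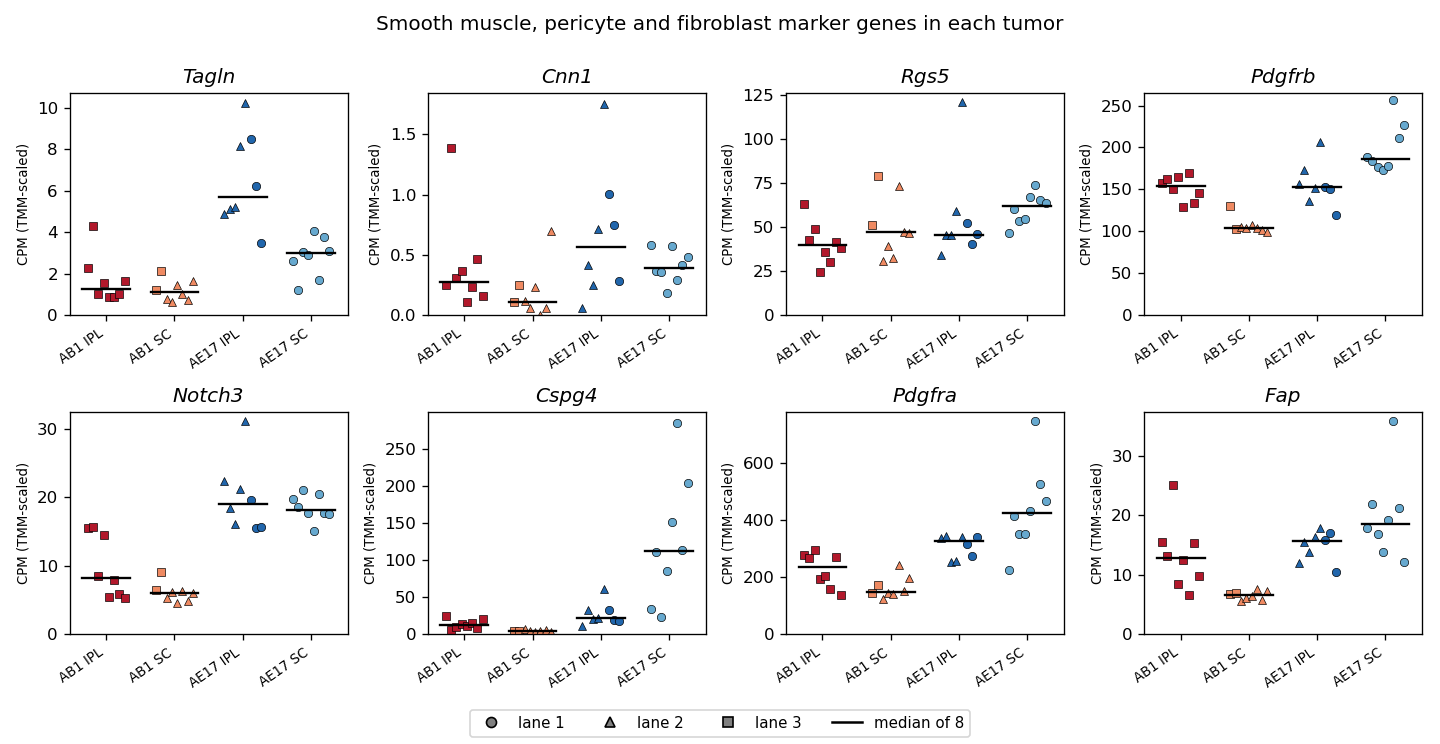
Level of each marker gene in CPM (vertical axis, starting at 0) in the 32 tumors, by group; points are tumors, their shape is the sequencing lane, and lines are medians of 8. Cspg4 reached 284.8 CPM in 1 AE17 SC tumor and stayed under 7 CPM in all AB1 SC tumors, and Rgs5 overlapped between all groups.

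To ask whether the site of growth changed these genes, the IPL tumors of a model were set against its SC tumors with the quasi-likelihood test of edgeR, adjusted by Benjamini-Hochberg over every gene tested, at a threshold of 0.05. Pdgfrb, Cspg4 and Fap were higher in IPL tumors in AB1. In AE17, Cspg4 was lower and Tagln higher in IPL tumors. Of the 7 genes that passed the filter on low counts, 3 were called higher and 0 lower in AB1, where 12.3% of all 14645 genes tested were called higher and 10.7% lower. In AE17, 1 was called higher and 1 lower, against 2.60% and 3.13% of 14668 genes. Cnn1 did not pass the filter in either model. No gene of the panel separated IPL from SC tumors without overlap in either model, which 5.02% of genes did in AB1 and 0.573% in AE17. With sequencing lane as a term, or within the lane holding both sites, 0 of 7 panel genes passed the edgeR threshold in either model. Among all genes, 386 passed in AB1 and 1 in AE17 with lane as a term, and 169 and 14 within lane. At an unadjusted edgeR p under 0.05, 4 panel genes remained in AB1 and 3 in AE17 (3 and 4 within lane). The share of all genes at that threshold was not computed, here or for the lists below, and no result is drawn from it. DESeq2 and limma-voom, both run without lane, called 4 and 4 in AB1 and 4 and 5 in AE17. Of all genes in AE17, DESeq2 called 1774 and limma-voom 3925. Within-lane sizes stand beside each tested gene below.

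**Figure D2:**
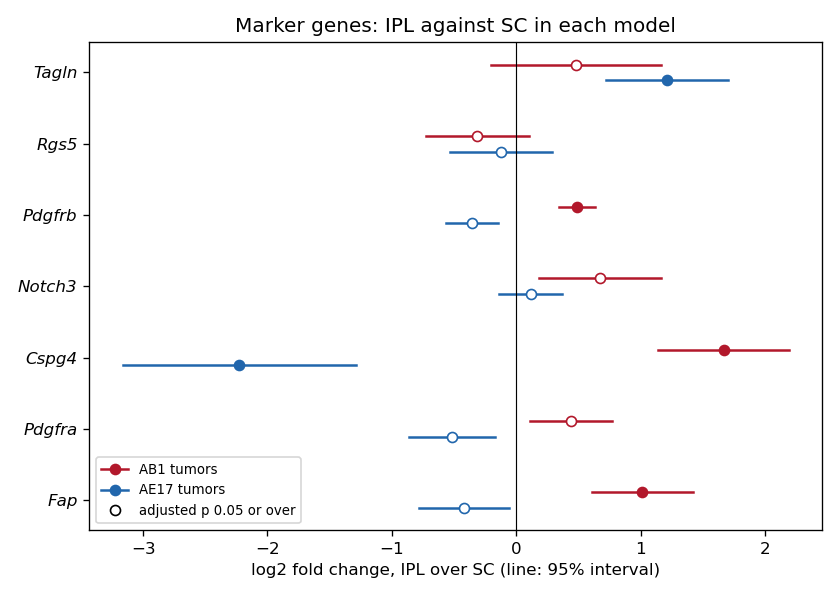
Log2 fold change of IPL over SC tumors (horizontal axis) for the 7 marker genes tested, in AB1 (red) and AE17 (blue); lines reach 1.96 standard errors to each side and filled points have an adjusted p under 0.05. Cspg4 stood at 1.67 in AB1 and -2.23 in AE17.

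Among the contractile genes, Tagln, which encodes the actin-binding protein transgelin, had low counts. It ranged from 0.867 to 4.31 CPM (median 1.28) in AB1 IPL and from 0.640 to 2.12 CPM (median 1.10) in AB1 SC tumors. These groups overlapped, with 2 of 8 IPL tumors above all SC tumors, and the log2 fold change was 0.48 ± 0.35 (SE, edgeR adjusted p = 0.347). It was 0.14 without AB1 IPL replicate 2 and 0.26 with limma-voom. In AE17, Tagln ranged from 3.48 to 10.2 CPM (median 5.70) in IPL and from 1.22 to 4.05 CPM (median 2.97) in SC tumors. Here 7 of 8 IPL tumors were above the highest SC tumor, a log2 fold change of 1.21 ± 0.25 (edgeR adjusted p = 0.0153). Within lane 1, with 3 IPL tumors, the change was 1.11 (edgeR adjusted p = 0.234), and in AB1 within lane 3, with 2 SC tumors, it was -0.04. Whether reads were assigned by strand was not given in the sources used here. On GRCm38, Tagln (chr9:45929619-45936058, minus strand) shares 62.4% of its exon bases with Gm48529, an antisense gene whose row held between 17 and 43 counts per tumor against 11 to 169 for Tagln. Gm48529 had 1.87 ± 0.44 CPM in AE17 IPL and 1.73 ± 0.18 CPM in AE17 SC tumors (SD, n = 8). Pcsk7, also on the opposite strand, covers 5.43% of the exon bases of Tagln and had 592 to 1126 counts per tumor. Its mean was 61.5 CPM in AE17 IPL, 57.8 in AE17 SC and 37.9 in both AB1 groups. The part of shared reads in the level of Tagln, and in its differences between sites and models, was not tested.

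Cnn1, the thin-filament protein calponin, was near the detection limit. It had between 0 and 29 counts per tumor, and group medians were 0.277 CPM in AB1 IPL, 0.112 in AB1 SC, 0.565 in AE17 IPL and 0.391 in AE17 SC tumors. Without the filter the log2 change between sites was 1.10 (95% interval -0.06 to 2.25, edgeR adjusted p = 0.258) in AB1 and 0.67 (-0.19 to 1.54, 0.444) in AE17, and DESeq2 gave 1.10 and 0.69, none past the threshold. In the IPL groups the tumor with the most Cnn1 was also the one with the most Tagln of its group, AB1 IPL replicate 2 (1.38 CPM of Cnn1) and AE17 IPL replicate 5 (1.75 CPM), while in the SC groups the highest tumors differed.

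Rgs5, an inhibitor of G protein signaling that is among the most used pericyte markers, showed no call at either site. It ranged from 24.4 to 63.2 CPM (median 39.9) in AB1 IPL and from 30.6 to 78.8 CPM (median 47.0) in AB1 SC tumors, with a log2 change of -0.31 (95% interval, 1.96 SE to each side, -0.73 to 0.10, edgeR adjusted p = 0.304). In AE17 it ranged from 34.3 to 121.1 CPM (median 45.7) in IPL and from 46.6 to 73.9 CPM (median 61.9) in SC tumors, giving a log2 change of -0.12 (-0.53 to 0.29, edgeR adjusted p = 0.760). The highest IPL value came from replicate 5. Without that tumor the fold change in AE17 was -0.40 with an edgeR adjusted p of 0.0425. Within lane the changes were -0.74 in AB1 and -0.40 in AE17, with lane as a term -0.69 and -0.40, and with limma-voom -0.11 and -0.35, none past the threshold.

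Pdgfrb, the PDGF receptor that holds pericytes to vessels, was measured with little spread. It ranged from 128.9 to 169.0 CPM (median 154.0) in AB1 IPL and from 99.2 to 130.0 CPM (median 104.1) in AB1 SC tumors. Of the IPL tumors, 7 of 8 were above the highest SC tumor, and the log2 fold change was 0.49 ± 0.07 (edgeR adjusted p = 0.000184). In AE17 the order was the other way, from 119.7 to 207.1 CPM (median 152.4) in IPL and from 173.7 to 256.8 CPM (median 185.9) in SC tumors. There 7 of 8 IPL tumors were below the lowest SC tumor, but the fold change of -0.35 ± 0.11 did not pass (edgeR adjusted p = 0.0594). It passed without AE17 IPL replicate 5 (-0.43, edgeR adjusted p = 0.0172), without AE17 SC replicate 1 (-0.37, 0.0421), without AE17 SC replicate 3 (-0.38, 0.0424), with DESeq2 (-0.36, 0.0247), with limma-voom (-0.33, 0.00589) and in the edgeR fit of all 32 tumors (-0.35, 0.0135). Within lane the changes were 0.32 in AB1 and -0.50 in AE17 (edgeR adjusted p = 0.334 and 0.216).

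Notch3, the Notch receptor of mural cells, ranged from 5.22 to 15.7 CPM (median 8.23) in AB1 IPL and from 4.60 to 9.10 CPM (median 6.06) in AB1 SC tumors. AB1 IPL replicates 1, 2 and 4 lay above all SC tumors at between 14.5 and 15.7 CPM, the other 5 overlapped them, and the log2 fold change of 0.68 ± 0.25 did not pass (edgeR adjusted p = 0.0609). It passed with DESeq2 (0.68, adjusted p = 0.0367), in the edgeR fit of all 32 tumors (0.69, adjusted p = 0.0124) and when AB1 IPL replicate 5, 7 or 8 or AB1 SC replicate 2 was left out, at between 0.76 and 0.78. It was 0.40 with limma-voom (adjusted p = 0.209) and 0.27 within lane 3. In AE17 the groups overlapped, with a median of 18.2 CPM in SC tumors and a log2 fold change of 0.12 ± 0.13 (edgeR adjusted p = 0.610). That value turned to -0.01 without AE17 IPL replicate 5 and to -0.13 within lane 1. On GRCm38 an antisense gene, Gm17276, covers 6.03% of the exon bases of Notch3.

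Cspg4, which encodes the NG2 proteoglycan of pericytes and of some other immature cells, had the largest site effects of the panel's 7 tested genes in both models. In AB1 it ranged from 5.81 to 23.6 CPM (median 11.7) in IPL and from 2.72 to 6.78 CPM (median 3.89) in SC tumors. Of the IPL tumors, 7 of 8 were above the highest SC tumor, replicate 2 being the exception, and the log2 fold change was 1.67 ± 0.27 (edgeR adjusted p = 0.000301), a 3.17-fold difference. In AE17 it ranged from 10.6 to 60.4 CPM (median 21.1) in IPL and from 22.6 to 284.8 CPM (median 111.6) in SC tumors. Here 5 of 8 IPL tumors were below the lowest SC tumor, and the log2 fold change was -2.23 ± 0.48 (edgeR adjusted p = 0.0193), 4.69-fold in size. The AE17 SC tumors differed among themselves by 12.6 times: replicates 1 and 3 had 33.0 and 22.6 CPM and the other 6 between 84.6 and 284.8 CPM. Both calls held when any 1 tumor was left out, with sizes from 1.49 upwards in AB1 and between -2.53 and -1.94 in AE17. Within lane the sizes were 1.58 in AB1 (95% interval 0.59 to 2.57) and -2.46 in AE17 (-3.89 to -1.04), with edgeR adjusted p values of 0.218 and 0.239.

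The upstream sequences of Cspg4 and of Rgs5 are shown because these pericyte genes differed most in how they moved, Cspg4 in opposite directions in the models and Rgs5 with no call. The letters come from the RefSeq promoter table on GRCm38.p6, plus strand, and end before both the RefSeq and the GENCODE start of the gene, at chr9:56864854-56865032 for Cspg4 (179 bases) and chr1:169655251-169655500 for Rgs5 (250 bases). Capitals mark the GC box, the letters GGGCGG or, on the other strand, CCGCCC.
Cspg4: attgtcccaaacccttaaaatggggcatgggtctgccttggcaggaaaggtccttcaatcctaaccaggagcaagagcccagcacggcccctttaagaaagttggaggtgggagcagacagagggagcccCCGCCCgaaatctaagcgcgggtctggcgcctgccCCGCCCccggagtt
Rgs5: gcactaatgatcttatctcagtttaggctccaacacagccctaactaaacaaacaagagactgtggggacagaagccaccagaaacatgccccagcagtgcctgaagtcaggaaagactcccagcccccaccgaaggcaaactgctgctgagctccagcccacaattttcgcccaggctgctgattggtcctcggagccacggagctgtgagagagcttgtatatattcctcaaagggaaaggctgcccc
The Cspg4 stretch held 2 GC boxes, which 20.9% of 32851 promoters hold at least once over the same 179 bases, and the Rgs5 stretch held 0, where 32.7% of promoters hold one over 250 bases. The TATA box letters TATAAA, searched on both strands, were in neither stretch and were in 8.34% and 12.4% of promoters over these lengths. The stretch of Notch3, a pericyte gene without an edgeR site call, held 4 GC boxes over 250 bases, and that of Pdgfrb was not examined. These are descriptions of the letters in the windows only, and a link to how the genes moved was not tested.

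Pdgfra ranged from 137.0 to 294.4 CPM (median 235.4) in AB1 IPL and from 123.5 to 239.9 CPM (median 147.2) in AB1 SC tumors. The groups overlapped, 4 of 8 IPL tumors being above all SC tumors, and the log2 fold change of 0.44 ± 0.17 did not pass (edgeR adjusted p = 0.0717). It passed when AB1 IPL replicate 6 or 8 or AB1 SC replicate 6 was left out, at between 0.50 and 0.56, and with limma-voom (0.59, adjusted p = 0.00604). In AE17 it ranged from 252.4 to 342.5 CPM (median 325.6) in IPL and from 225.8 to 746.0 CPM (median 423.0) in SC tumors. All 8 IPL tumors were below the median of the SC tumors but above the lowest, replicate 1, and the log2 fold change was -0.52 ± 0.18 (edgeR adjusted p = 0.0869). Without AE17 SC replicate 1 it was -0.62 (edgeR adjusted p = 0.0160), with DESeq2 -0.52 (adjusted p = 0.0403), with limma-voom -0.56 (adjusted p = 0.00482), and within lane the changes were 0.44 in AB1 and -0.51 in AE17.

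Fap ranged from 6.60 to 25.1 CPM (median 12.8) in AB1 IPL and from 5.54 to 7.59 CPM (median 6.57) in AB1 SC tumors. Of the IPL tumors, 7 of 8 were above the highest SC tumor, and the log2 fold change was 1.01 ± 0.21 (edgeR adjusted p = 0.00197), a 2.02-fold difference with a wider spread at the pleural site. In AE17 the ranges were 10.4 to 17.8 CPM (median 15.6) in IPL and 12.2 to 35.8 CPM (median 18.5) in SC tumors, giving a log2 change of -0.42 ± 0.19 (edgeR adjusted p = 0.169). It passed with limma-voom (-0.40, adjusted p = 0.0327) and was -0.24 without AE17 SC replicate 6. Within lane the changes were 0.92 in AB1 and -0.46 in AE17 (edgeR adjusted p = 0.421 and 0.455).

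**Figure D3:**
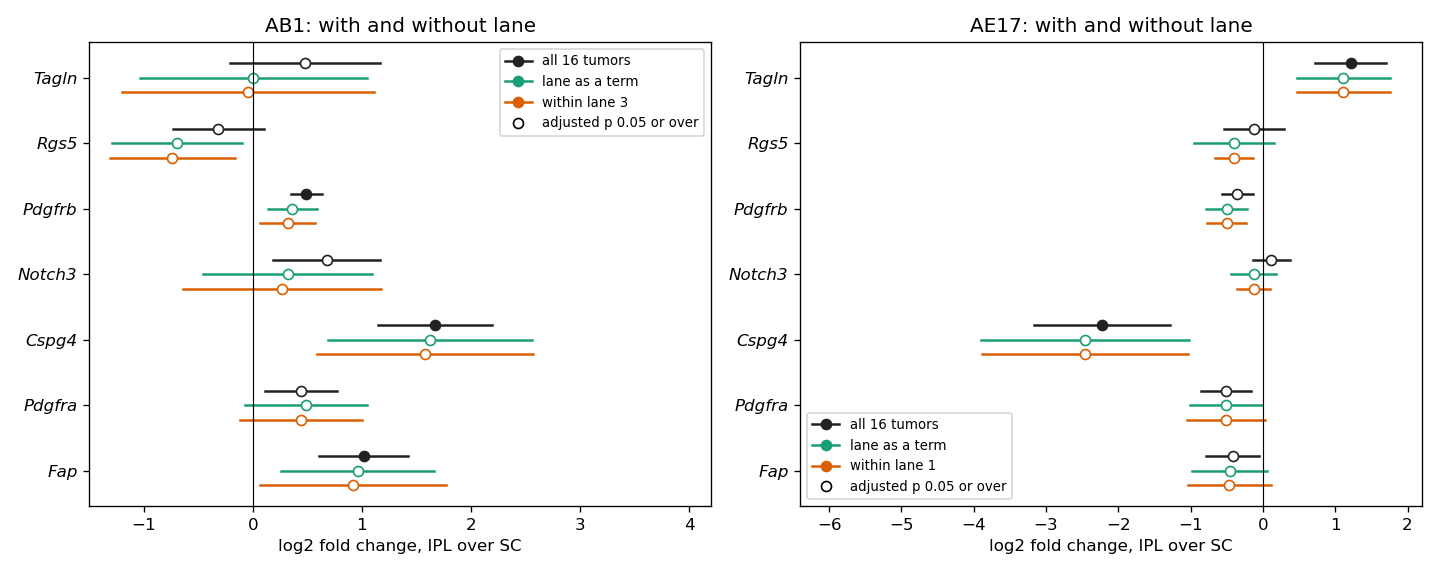
Log2 fold change of IPL over SC tumors (horizontal axis, lines 1.96 standard errors to each side) in AB1 (left) and AE17 (right), from all 16 tumors (black), with lane as a term (green) and within the lane that held both sites (orange). Filled points have an adjusted p under 0.05; Cspg4 was 1.67, 1.62 and 1.58 in AB1, and only black points are filled.

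The site effects were then compared between the models in a single fit of all 32 tumors. The effect of the pleural site was more positive in AB1 than in AE17 for Pdgfrb, Cspg4, Pdgfra and Fap, which is 4 of 7 genes tested in that direction and 0 in the other, against 11.9% and 8.62% of all 15681 genes tested. The log2 difference was 3.91 ± 0.57 for Cspg4 (edgeR adjusted p = 5.39e-05), 0.86 ± 0.13 for Pdgfrb (5.54e-05), 1.45 ± 0.29 for Fap (0.000803) and 0.97 ± 0.25 for Pdgfra (0.00669). It was 0.57 ± 0.29 for Notch3 (0.160), -0.17 for Rgs5 (95% interval -0.77 to 0.43, 0.742) and -0.71 for Tagln (-1.58 to 0.15, 0.270). For Rgs5 the sign was not stable: it was 0.10 without AE17 IPL replicate 5 and 0.24 with limma-voom. Tagln passed in the negative direction without AB1 IPL replicate 2 (-1.07, edgeR adjusted p = 0.0486). With lane as a term, Cspg4 (4.10, edgeR adjusted p = 0.0397) and Pdgfrb (0.88, 0.0306) kept their call, while Fap (1.44, 0.102) and Pdgfra (1.01, 0.185) had nearly the same size and lost it.

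At a given site, AB1 tumors had lower levels of most of the panel than AE17 tumors. These comparisons use the same 4 groups as the ones above, so they are not separate evidence. Cell line, mouse strain and number of cells inoculated differed together between the models and cannot be told apart. At a given site the tumors of the models also shared no sequencing lane. In SC tumors 6 of 7 genes tested were lower in AB1 and 0 higher, where 29.7% of all genes were called lower and 28.6% higher. Cspg4 differed by -4.93 ± 0.45 on the log2 scale, 30.5-fold in size, followed by Fap (-1.61), Notch3 (-1.60), Pdgfra (-1.42), Tagln (-1.22) and Pdgfrb (-0.90), with edgeR adjusted p values between 7.20e-11 and 0.00150. Pdgfrb, Notch3, Cspg4 and Fap separated the SC tumors of the models without overlap, which 30.9% of all genes did. Rgs5 overlapped, at -0.28 (95% interval -0.70 to 0.15, edgeR adjusted p = 0.281), passed with limma-voom (-0.38, adjusted p = 0.0433) and was -0.84 with lane as a term (edgeR adjusted p = 0.0956). All 6 calls held with lane as a term, where the lane effects come only from groups with tumors on different lanes.

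In IPL tumors the differences between models were smaller for the receptors. Tagln (-1.93 ± 0.31, edgeR adjusted p = 2.51e-06), Notch3 (-1.03 ± 0.20, 5.42e-05), Cspg4 (-1.02 ± 0.39, 0.0232) and Pdgfra (-0.45 ± 0.18, 0.0279) were lower in AB1, which is 4 of 7 genes, where 31.8% of all genes were called lower and 31.6% higher. No gene of the panel separated these groups without overlap, which 28.1% of all genes did. Pdgfrb had means of 151.5 ± 14.5 CPM in AB1 and 155.9 ± 25.9 CPM in AE17 IPL tumors (SD, n = 8) and differed by -0.04 (95% interval -0.22 to 0.14, edgeR adjusted p = 0.711), a sign that turned with total counts as the scale (0.02), without AB1 IPL replicate 7 (0.01) and without AE17 IPL replicate 5 (0.03). Fap differed by -0.16 (-0.55 to 0.24, edgeR adjusted p = 0.512). The call of Cspg4 was lost without AB1 IPL replicate 7 (-0.90) or AE17 IPL replicate 5 (-0.73) and with replicate number as a block (-0.94). That of Pdgfra was lost without AB1 IPL replicate 4, 6 or 8 (between -0.42 and -0.37) and with total counts as the scale (-0.39). Both were lost with lane as a term (-1.19 and -0.38), with limma-voom (-0.88 and -0.30) and without a filter (-0.99 and -0.42). Rgs5 (-0.45, edgeR adjusted p = 0.0715) passed without AB1 IPL replicate 1 (-0.54) or AE17 IPL replicate 1 (-0.53), and with lane as a term (-1.12, 0.0340).

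**Figure D4:**
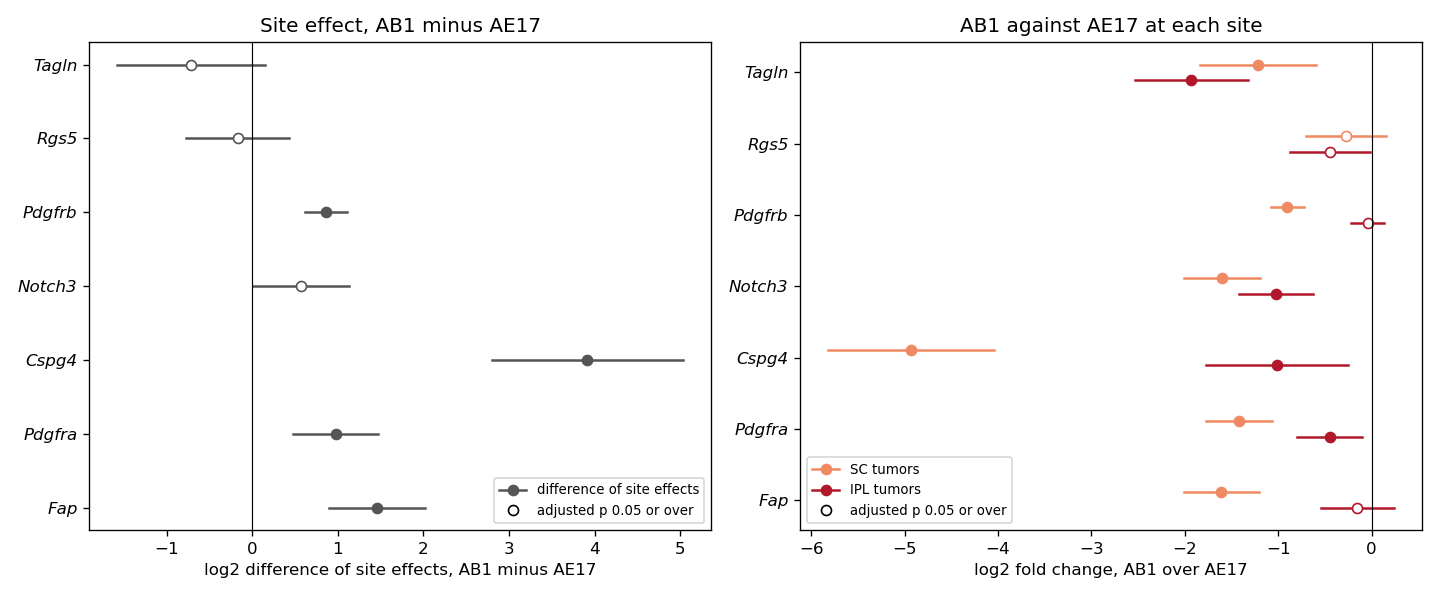
Left, difference of the IPL over SC effect between models on the log2 scale (AB1 minus AE17); right, log2 fold change of AB1 over AE17 tumors at the SC (orange) and IPL (red) site. Lines reach 1.96 standard errors to each side, filled points have an adjusted p under 0.05, and Cspg4 lies farthest from 0 in the left panel (3.91) and among SC tumors (-4.93).

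Other genes of the same cells and pathways were read from fixed lists, by how many passed the test. Of 10 other contractile smooth muscle genes tested in AB1, 5 were higher in IPL tumors and 0 lower, where 12.3% of all genes were called higher and 10.7% lower, with a median log2 fold change of 0.65 against 0.00 over all genes. They were Des (3.29), Tpm2 (1.54), Synpo2 (1.23), Tpm1 (0.58) and Smtn (0.41). At least Des, the intermediate filament desmin, and the tropomyosins Tpm2 and Tpm1 are also made in skeletal muscle. The skeletal muscle marker list moved with them: 7 of its 8 genes were higher in AB1 IPL tumors, with a median log2 fold change of 2.79, and its part in the result was not tested. In AE17, Actg2, the gamma actin of visceral smooth muscle, was higher (1.41 ± 0.28, edgeR adjusted p = 0.0137) and Itga8, an integrin subunit, lower in IPL tumors (-1.47 ± 0.30, 0.0144), which is 1 of 10 in each direction where 2.60% of all genes were called higher and 3.13% lower, and 0 of 8 skeletal muscle genes passed (0 at an unadjusted p under 0.05, and 0 with DESeq2 or limma-voom). With lane as a term 0 of the 10 contractile genes passed in either model, 2 in AB1 and 3 in AE17 having an unadjusted p under 0.05. Des was then at 2.53 ± 1.19 in AB1 (edgeR adjusted p = 0.301), Actg2 at 1.04 (0.204) and Itga8 at -1.42 (0.191) in AE17.

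Of 8 other mural cell genes tested in AB1, 4 were higher in IPL tumors and 0 lower, against the same 12.3% and 10.7% of all genes. Vtn, the matrix protein vitronectin, rose from 0.887 ± 0.215 to 7.88 ± 3.74 CPM (log2 fold change 3.13 ± 0.31, edgeR adjusted p = 9.01e-06), and all 8 IPL tumors were above all SC tumors, as they were for Abcc9 (0.85) and Rgs4 (1.16), a separation without overlap that 5.02% of all genes showed. Abcc9 is a subunit of the potassium channel of mural cells, Rgs4 a relative of Rgs5, and Steap4 (1.67) a metalloreductase. Summed markers of other tissues were also higher in AB1 IPL than in AB1 SC tumors, with medians of 10.8 and 3.70 CPM for adipocytes and 194.8 and 153.0 CPM for endothelium, beside the skeletal muscle list above. Steap4 was highest in AB1 IPL replicate 2 (58.3 CPM), the tumor with the most adipocyte markers of its group, and the part of these tissues in the mural calls was not tested. Of the 11 tested in AE17, 0 passed at the adjusted threshold (1, lower, at an unadjusted p under 0.05), where 2.60% of all genes were called higher and 3.13% lower. Their median was -0.01; DESeq2 called 0 and limma-voom 2, both lower. With lane as a term Vtn kept its call in AB1 (3.15 ± 0.59, edgeR adjusted p = 0.00906), while Abcc9 (0.71), Rgs4 (1.03) and Steap4 (1.58) lost theirs. Within lane 3 the call of Vtn was lost too (3.10, edgeR adjusted p = 0.0644).

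Most fibroblast genes called in AB1 were higher in IPL tumors. Of 14 other fibroblast genes tested, 8 were higher in IPL tumors, among them the matrix genes Col14a1 (1.51 ± 0.18, edgeR adjusted p = 2.64e-05), Clec3b and Dpt (1.13), and 2 were lower, Thy1 (-1.22 ± 0.18, 0.000151), which T cells also carry, and Dpp4 (-0.78), the closest relative of Fap. Of all genes, 12.3% were called higher and 10.7% lower, so the share of lower calls was near that of all genes. Skeletal muscle, heart muscle and adipocyte markers also had higher medians in AB1 IPL than in AB1 SC tumors, and their part in the 8 higher calls was not tested. Of the 5 genes of the leukocyte marker list, which covers more than T cells, 3 were lower in AB1 IPL tumors. The part of leukocytes in the Thy1 call was not tested. With lane as a term Col14a1 (1.83, edgeR adjusted p = 0.00456) and Thy1 (-1.20, 0.0252) kept their calls and the other 8 lost theirs. Within lane 3 Col14a1 passed (1.78, edgeR adjusted p = 0.0240) and Thy1 did not (-1.26, 0.0628). In AE17, 0 of the 14 passed (2 at an unadjusted p under 0.05, 1 in each direction), against 2.60% of all genes called higher and 3.13% lower, and their median was -0.17; DESeq2 called 0 and limma-voom 3, all lower. For the difference between the models, 7 of the 14 were more positive in AB1 and 1, Thy1, more negative, against 11.9% and 8.62% of all genes. For this difference 0 of the 14 passed with lane as a term, 8 having an unadjusted p under 0.05.

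**Figure D5:**
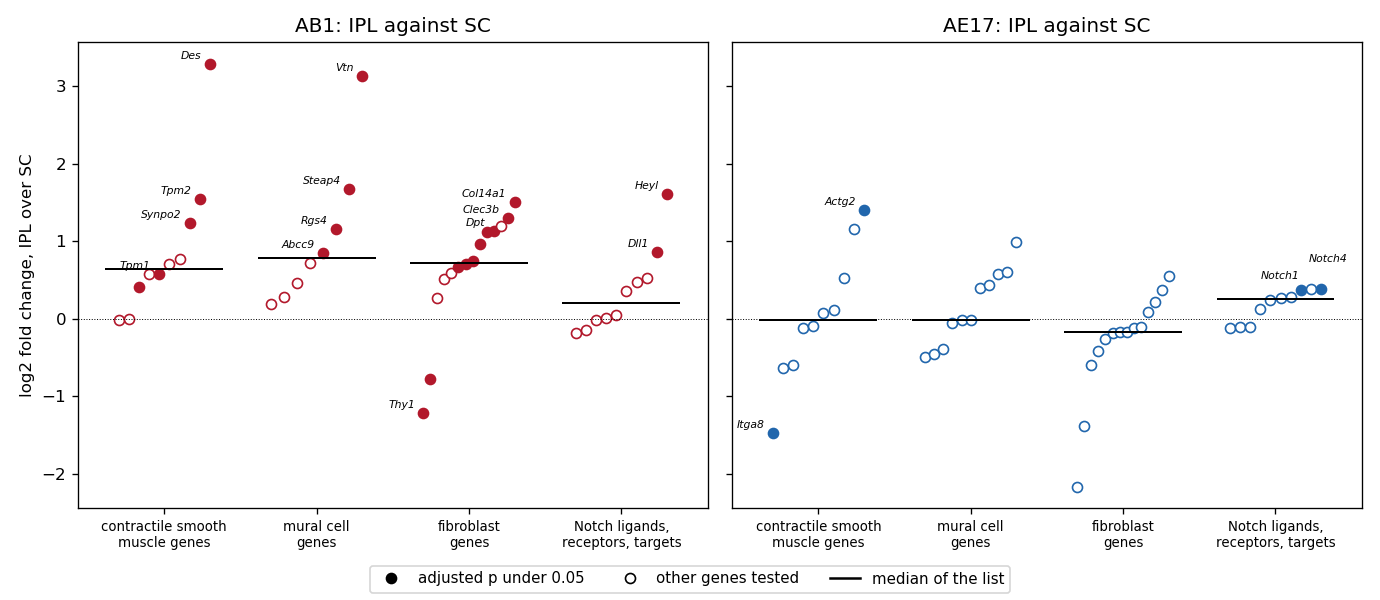
Log2 fold change of IPL over SC tumors (vertical axis) for the tested genes of 4 lists in AB1 (left) and AE17 (right); points are genes, filled where the adjusted p is under 0.05, up to 4 of them named per list, and lines are list medians. Medians of the contractile, mural and fibroblast lists were 0.65, 0.78 and 0.72 in AB1 and -0.01, -0.01 and -0.17 in AE17.

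Among the ligands and regulators tested few genes passed, and Pdgfb and Srf were not analysed here. Of all genes, 10.7% were called lower in AB1 and 3.13% in AE17. Of the 3 PDGF ligands tested, Pdgfc, a ligand of the receptor encoded by Pdgfra, was lower in AB1 IPL tumors (-0.43 ± 0.11, edgeR adjusted p = 0.00732) and 0 passed in AE17 (0 at an unadjusted p under 0.05, and 0 with DESeq2 or limma-voom), where Pdgfa had 47.9 and Pdgfc 49.5 CPM in IPL tumors. Of 10 Notch genes tested, the target Heyl (1.61 ± 0.32, edgeR adjusted p = 0.00162) and the ligand Dll1 (0.87 ± 0.22, 0.00861) were higher in AB1 IPL tumors, and the receptors Notch1 (0.37) and Notch4 (0.39) in AE17 IPL tumors. In AB1, 2 of 10 is near the 12.3% of all genes called higher, and in AE17 2.60% of all genes were called higher. The effect on Heyl differed between the models by 1.38 ± 0.41 (edgeR adjusted p = 0.0149), which became 1.06 ± 0.59 (0.376) with lane as a term. Of the SRF cofactors and regulators, Klf4, which restrains contractile genes in smooth muscle, was lower in IPL tumors of AB1 (-0.58, edgeR adjusted p = 0.0212) and of AE17 (-0.50, 0.0492). With lane as a term 0 genes of these 3 lists passed in either model; Heyl was then at 1.04 ± 0.49 (edgeR adjusted p = 0.303) and Klf4 at -0.29 in AB1 and -0.55 in AE17. At an unadjusted p under 0.05, 1 of these genes remained in AB1 and 2 in AE17. Myocd, the cofactor particular to cardiac and smooth muscle, had a mean of at most 0.19 CPM in any group.

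Single tumors moved several of these genes at once. AE17 IPL replicate 5 had the highest value of its group for 7 of the 8 genes, all but Pdgfra, with 121.1 CPM of Rgs5 and 60.4 CPM of Cspg4. The same tumor had the highest summed adipocyte (316.4 CPM), heart muscle (222.9 CPM), endothelial (309.5 CPM) and skeletal muscle (819.0 CPM) markers of its group, whose median was 1.05 CPM for the adipocyte, 203.1 CPM for the endothelial and 534.1 CPM for the skeletal muscle list. AE17 SC replicate 6 was the highest of its group for Rgs5, Pdgfrb, Cspg4, Pdgfra and Fap. It also had the highest summed epidermal (22.7 CPM, median 2.83) and skeletal muscle markers (1296 CPM, median 600.8) of its group. AB1 IPL replicate 2 was the highest for Tagln, Cnn1 and Notch3 and the lowest for Cspg4, and had 79.6 CPM of summed mesothelial and 103.8 CPM of summed adipocyte markers against medians of 1.94 and 10.8. It also had the lowest summed skeletal muscle (104.0 CPM, median 2111) and heart muscle markers (2.88 CPM, median 22.01) of its group. The part of these tissues in the values was not tested.

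After the mean of each group was subtracted, the genes of the panel followed one another only in part over the 32 tumors (log2 CPM, Pearson r, a description over tumors that share lanes and scaling). The highest r within the panel was 0.60, between the fibroblast genes Pdgfra and Fap, followed by 0.54 for Cspg4 with Pdgfrb and 0.53 for Pdgfra with Rgs5. Tagln reached 0.52 with Notch3, and Cspg4 had -0.01 with Tagln and 0.03 with Notch3. Among 13922 genes compared, those most like Pdgfrb were Bgn (0.80), Col6a3 (0.76) and Serpinf1 (0.75), all coding for secreted proteins, and those most like Cspg4 were Cacnb2 (0.87), Ank (0.87) and Fendrr (0.86). Most like Tagln were Rhoj (0.74), Adamts16 (0.67) and Igfbp7 (0.67), and most like Rgs5 were Acadm (0.85), Igf1 (0.79) and Rmdn1 (0.79). Notch3 was closest to Acaa1b (0.80), Emilin1 (0.79) and Ormdl3 (0.78), Pdgfra to Ptgfr (0.88), Emx2os (0.84) and Tceal1 (0.80), and Fap to Ugp2 (0.82), Enah (0.81) and Herpud2 (0.81). Cnn1, under a mean of 1 CPM, was left out of the search for similar genes. With rank correlation only 7 of these 21 genes stayed among the 3 closest. Summed endothelial markers had r of 0.61 with Pdgfrb, 0.57 with Notch3, 0.53 with Tagln and 0.50 with Cspg4, and -0.02 with Fap. Other tissue lists reached like values: summed adipocyte markers had r of 0.61 with Notch3, 0.61 with Cnn1, 0.55 with Tagln and 0.54 with Rgs5, mesothelial markers 0.55 with Cnn1, skeletal muscle markers 0.48 with Fap and 0.47 with Cspg4, and leukocyte markers -0.58 with Cspg4.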

How the data were processed

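Bulk polyA RNA of 32 whole tumors was sequenced as 50 bp single-end reads. The authors mapped the reads with HISAT2 2.0.4 and deposited read counts per gene (raw counts, not normalized), made with SummerizeOverlaps; strand setting and handling of reads shared by genes were not given in the sources used here. Groups were taken from the sample labels and sequencing lanes from the column names. Coordinates are those of GENCODE M21 (GRCm38), to which 39495 of 39676 gene identifiers matched without version; the methods name the build mm11. The table holds 18800 of the 22028 protein-coding genes of that annotation, so total counts are sums over its rows.

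CPM used TMM factors over all 32 tumors, and RPKM divided CPM by exon length in kilobases. Site comparisons used the 16 tumors of a model, and comparisons between models 1 fit of 32 with 4 groups, in edgeR 4.0.16 (R 4.3.3; filterByExpr, TMM, robust quasi-likelihood F test, two-sided, Benjamini-Hochberg adjustment over all genes tested). Alternatives were DESeq2 1.42.0, limma 3.58.1 (voom with sample weights), other scalings and filters (none, or at least 10 counts in every tumor), lane, replicate block and leaving out each tumor. The fit was also run on simulated data, and no result given here rests on that run. Counting limits cover counting error only, since no molecular identifiers are described. Of the 112 pairs of tumors within a group, the most alike had a chi-square of 5.92 per degree of freedom, above sampling noise, and each tumor counted as 1 replicate. No row lacked a gene, and every column of counts was used.

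The marker genes and lists were chosen with earlier results of these data known. By rule, the text names all genes of the panel, per further list and comparison up to 4 called genes with the largest changes (or the 1 or 2 most abundant where none was called), up to 3 abundant genes of a tissue marker list, relatives that could share reads, and the 3 genes most similar to each panel gene. Smtn, Myocd, Upk3b and Lrrn4 were named outside that rule, after their values were seen, as were the genes overlapping Tagln and Notch3.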

Additional observations from a re-analysis of the deposited data

Results flagged for a closer look

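In each of the 4 groups of 8, the highest and the lowest tumor were checked for standing apart, that is a gap to the nearest other tumor that, divided by the group's range, exceeded Dixon's critical value for 8 values. Of 32 groups examined for the 8 genes, 9 had such a tumor, in each case the highest of its group. The critical value corresponds to about 1 in 20 for independent, normally distributed values. The CPM values were not log-scaled and the 8 genes share tumors, so the 9 cannot be set against that rate.

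AE17 IPL replicate 5 stood apart for Rgs5 (121.1 CPM, next 59.1), Notch3 (31.2 CPM, next 22.4) and Cspg4 (60.4 CPM, next 32.1). AB1 IPL replicate 2 stood apart for Tagln (4.31 CPM, next 2.28) and Cnn1 (1.38 CPM, next 0.465). Among AB1 SC tumors, replicate 8 stood apart for Cnn1 (0.695 CPM, next 0.253), replicate 1 for Pdgfrb (129.99 CPM, next 107.1) and replicate 2 for Notch3 (9.10 CPM, next 6.47). AE17 SC replicate 6 stood apart for Fap (35.8 CPM, next 21.8).

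The effect of site differed between AB1 and AE17, by edgeR's test of the difference itself, for Cspg4 (3.91 on the log2 scale), Fap (1.45), Pdgfra (0.97) and Pdgfrb (0.86).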

How the results depend on the processing

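With lane as a term, calls in the panel went from 3 to 0 in AB1, from 2 to 0 in AE17 and from 4 to 2 for the difference of site effects, and within lane 3 (AB1) and lane 1 (AE17) 0 genes passed. Among all genes, calls with lane went from 3374 to 386 (AB1), 840 to 1 (AE17), 3212 to 117 (difference), 9138 to 5268 (SC tumors of the models) and 9940 to 5008 (IPL tumors), and within lane 169 genes passed in AB1 and 14 in AE17. The within-lane fits use 10 AB1 or 11 AE17 tumors. The cause was not tested.

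In AE17, DESeq2 called 4 and limma-voom 5 genes of the panel against 2, and among all genes 1774 and 3925 passed, with 1324 in 1 fit of all 32 tumors and 550 without a filter. Between models in IPL tumors, 2 genes of the panel passed without a filter and 2 with limma-voom, against 4. Of the 21 genes named as most similar, 7 remained by Spearman correlation. The cause was not tested.

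When each tumor was left out in turn, the panel's calls ranged from 3 to 5 in AB1 (5 without AB1 IPL replicate 8), from 2 to 4 in AE17 (4 without AE17 IPL replicate 5 or AE17 SC replicate 1), from 4 to 5 for the difference, from 3 to 5 in IPL tumors of the models and stayed at 6 in SC tumors. Calls among all genes in AE17 ranged from 316 (without AE17 IPL replicate 4) to 2066 (without AE17 SC replicate 1).

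Signs turned only for changes that had not been called: Tagln in AB1 within lane 3 (-0.0446), Notch3 in AE17 with lane as a term (-0.1267), within lane 1 (-0.1277) and over single tumors left out (-0.0115 to 0.1572), the difference for Rgs5 with limma-voom (0.2414) and over single tumors left out (-0.2788 to 0.0956), and Pdgfrb between models in IPL tumors with total counts (0.0162) and over single tumors left out (-0.0879 to 0.0285). Of the other fold changes of single genes, 272 values under other settings and 872 with a tumor left out kept direction and side of the threshold, while 11 and 15 crossed it to become calls and 20 and 5 lost theirs.

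With replicate number as a block, the panel kept 3 calls in AB1, 2 in AE17, 4 for the difference and 6 in SC tumors, while 3 passed in IPL tumors, where Cspg4 was lost (-0.94, edgeR adjusted p = 0.0514). Calls among all genes under the block were 2263 in AB1 and 661 in AE17. Numbers were not taken as pairs, since not every same-numbered pair correlated above 0.1: the correlations lay between -0.287 and -0.003 in AB1 and between -0.227 and 0.271 in AE17, where 5 of 8 pairs exceeded 0.1. Cnn1 had at most 29 counts per tumor, and its coefficient of variation within a group reached 116.4%.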
